A study of Drosophila erecta with 23 samples.

Results

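The genes of the Wnt signalling pathway were followed through the embryogenesis of *Drosophila erecta* in a RAMPAGE time series. They are 9 genes, taken from the deposited gene table by their *D. melanogaster* FlyBase identifiers: the ligands *Wnt2* and *Wnt5*, the receptors *fz* and *fz2*, the coreceptor *arr*, the relay protein gene *dsh*, the genes *Axn* and *sgg* of the complex that degrades the pathway's effector, and the transcription factor gene *pan*. All 9 were present among the 8948 genes listed. RAMPAGE sequences 5'-complete cDNAs and so measures the output of single promoters, called here as clusters of neighbouring transcription start sites (TSCs). The samples were whole embryos of the wild-type reference genome strain, staged to the hour (collection windows of 1 h, the first at 0-1 h and the last at 22-23 h of development), with no treatment and no other genotype. Each of the 23 time points is 1 sample, so no value below has a replicate, and all samples were barcoded and processed together as a single library.

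In the canonical Wnt pathway of flies, a secreted Wnt ligand binds a Frizzled receptor and the coreceptor Arrow at the cell surface. The signal passes through Dishevelled, which blocks the complex of Axin and the kinase Shaggy that otherwise marks the β-catenin Armadillo for destruction, and Armadillo then acts with the DNA-binding protein Pangolin on target genes. In the *D. melanogaster* embryo this pathway is known for maintaining the segment borders of the epidermis, and Frizzled and Dishevelled also act in planar cell polarity.

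Values are RPM (reads relative to the library total, as deposited), with 95% Wilson intervals that cover counting error only. A library held between 142224 reads in TSCs (7-8 h) and 13882184 (0-1 h), with a median of 3402363. In the 7-8 h library a single read equals 7.0 RPM. A count of 0, taken as at most 3 reads, allows up to 21.0 RPM there, and its Wilson interval reaches 26.9 RPM, so this hour is the least certain of the series for every gene below. The libraries of 4-5 h and 5-6 h stand apart. There, 337 late TSCs held 11.3% and 6.98% of the reads, against 0.626% at 3-4 h. The set, chosen after the data were seen, took TSCs that averaged 50 RPM or more over 20-23 h and stayed under 5% of that level at 6-7 h and over 8-11 h. None of the TSCs of the 9 genes belongs to this set, but all values at 4-6 h are given with this signal in view. The RNA was taken from whole embryos, in which fewer cells of a type and less RNA per cell cannot be told apart, and maternal RNA and RNA transcribed by the embryo cannot be told apart either.

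From 0-3 h to 8-11 h the mean level rose 7.23-fold for *fz2*, 5.85-fold for *Wnt5*, 3.23-fold for *pan* and 2.07-fold for *sgg*. Each of the first 3 h was lower than 3-4 h, a single library, for these genes, but also for every other of the 9 except *fz*. The share of all genes with this order was not counted. *fz*, *dsh* and *Axn* were already present at 0-1 h at levels near their mid-embryonic ones and declined in the last hours. Their means of 8-11 h were 0.91 (*fz*) to 1.17 (*dsh*) times those of 0-3 h, and *arr*, at 1.79 times, lay between these courses. In all but *pan* each library of 20-23 h was lower than each of 8-11 h, whereas for *pan* these hours overlapped. How many of all genes do the same was not counted, and 53.0% of those tested fell in the late step described below. *Wnt2* was scarcely detected at any hour. The plot of all 9 genes by hour shows these courses.

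**Figure D1:**
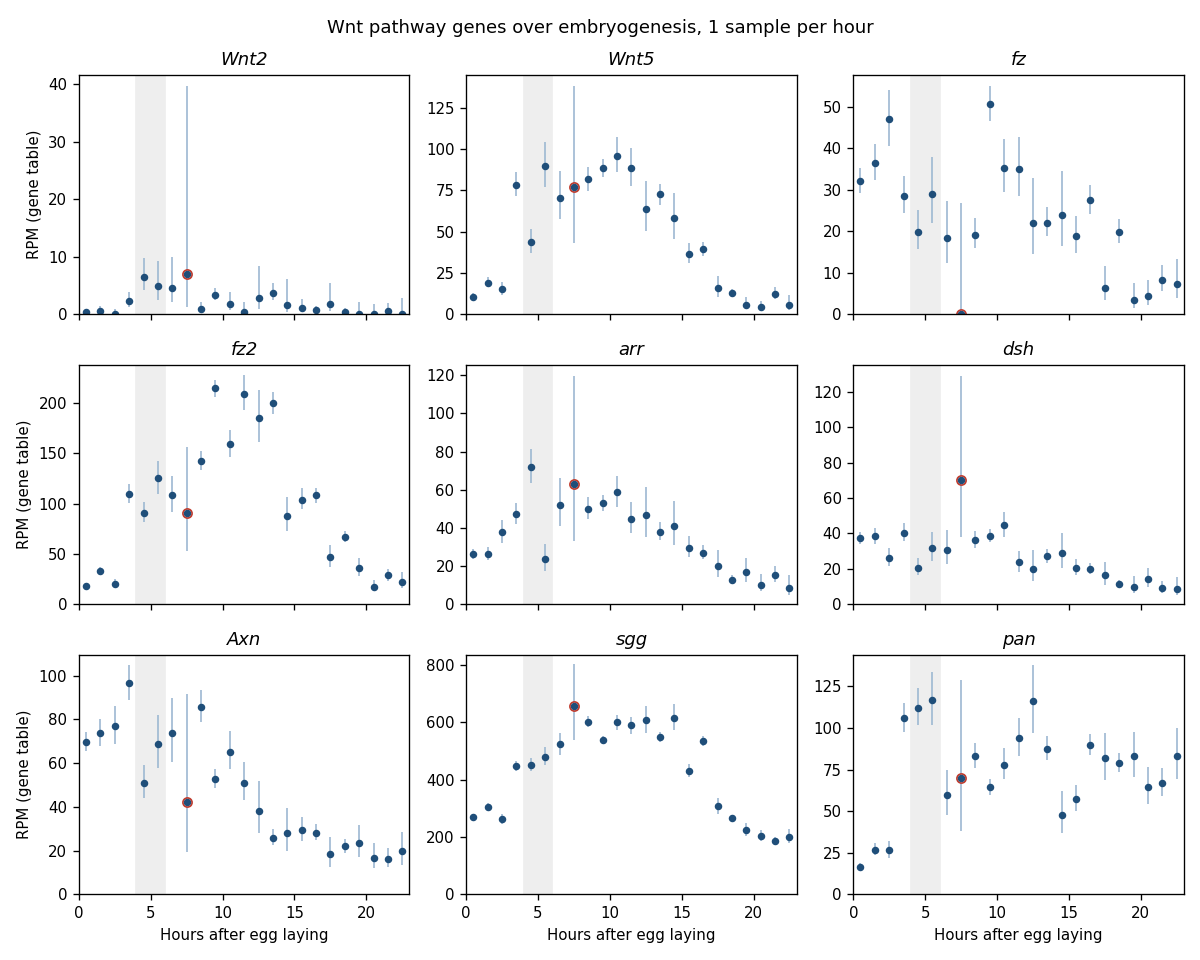
Level of the 9 Wnt pathway genes (RPM, linear axes that start at 0) against hours after egg laying, 1 sample per hour; bars are 95% Wilson intervals of the read counts, the grey band marks the libraries of 4-6 h and the red ring the shallow library of 7-8 h. *fz2* goes from 20.0 RPM at 2-3 h to 109.6 RPM at 3-4 h, whereas *pan* is still at 83.2 RPM at 22-23 h.

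Change over time was tested with limma on log2(RPM + 1), as a smooth curve over the 23 time points, with the scatter of the time points around the curve as the error. Contrasts of the same curve gave directions, from 1-2 h to 10-11 h and from 10-11 h to 21-22 h. The threshold was 0.05 for p adjusted by Benjamini-Hochberg over all 8367 genes tested. All 9 genes were called as changing over time, where 89.4% of all genes tested were. In the early step 5 of 9 rose (*fz2*, *Wnt5*, *pan*, *sgg* and *arr*; 18.5% of all genes rose) and 0 fell (15.0% of all genes). In the late step 8 of 9 fell, all but *pan*, against 53.0% of all genes, and 0 rose, against 18.3% of all genes. The median early step was 1.04 for the 9 genes and -0.04 for all genes, and the median late step was -1.73 and -1.06, all on the log2(RPM + 1) scale.

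The late step has to be read against this general decline. RPM are scaled to a total that also holds reads outside the listed genes. The listed genes together held 80.4% of that total at 10-11 h and 61.1% at 21-22 h. What this adds to the late step was not tested. From 19-20 h on, the 337 late TSCs held 45.6% to 53.1% of the reads. That they rise towards these hours follows from how the set was chosen, and their part in the decline was not tested. With TMM factors, which scale each library to the bulk of its genes and shift single libraries by -0.63 (7-8 h) to 0.91 (21-22 h) on the log2 scale, the median late step of all genes was -0.07. On that scale 5 of the 9 genes still fell in the late step (*fz2*, *Wnt5*, *arr*, *sgg* and *Wnt2*; 23.1% of all genes), and *pan* rose (27.6%). Over time 7 of 9 changed (78.3% of all genes), and in the early step 4 rose (17.0%) and 0 fell (16.5%). With TMM and whole reads, edgeR's quasi-likelihood fit gave 7 changing (80.6%), 4 rising (22.9%) and 0 falling (19.1%) in the early step, and 1 rising (27.7%) and 4 falling (23.2%) in the late step. The plot of the fitted steps shows both scales.

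**Figure D2:**
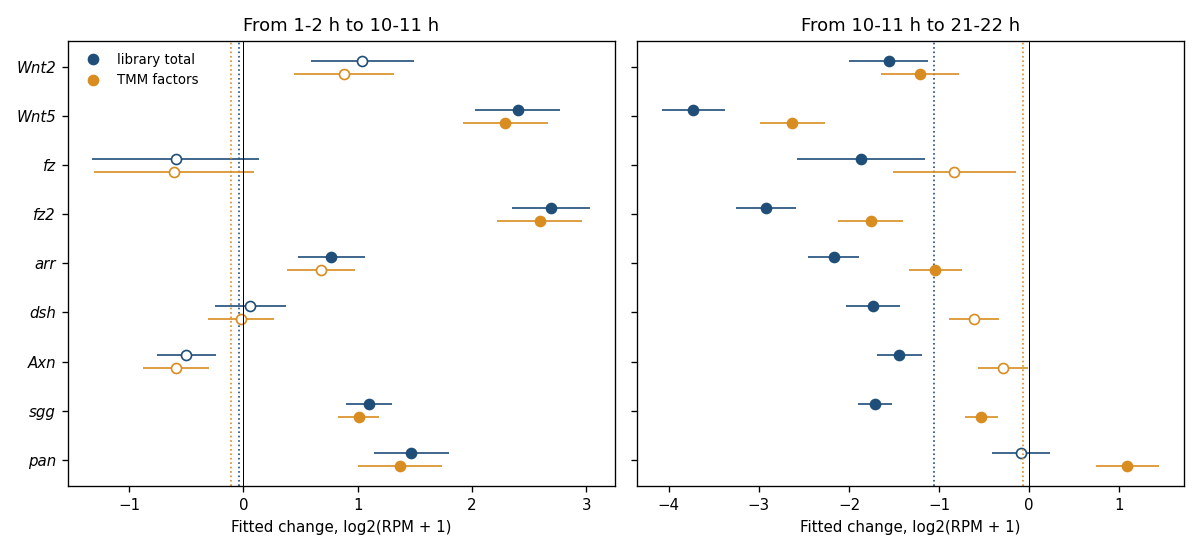
Fitted change of each gene, in log2(RPM + 1), from 1-2 h to 10-11 h (left) and from 10-11 h to 21-22 h (right), scaled by the library total (blue) or by TMM factors (orange). Points are limma estimates, bars their SE, filled points have an adjusted p under 0.05, and dotted lines are the medians of all genes tested (-1.06 and -0.07 in the late step); *pan* is the one gene at or above 0 in the late step on the TMM scale (1.09).

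Of the ligands, *Wnt5* (FBgn0010194), which in *D. melanogaster* is known for guiding axons in the ventral nerve cord through the receptor Derailed, had the widest range of the genes with reads at every hour. It was read at 10.8, 19.3 and 15.4 RPM in the first 3 h. The level was 78.3 RPM (71.4 to 85.9) at 3-4 h and lay between 63.7 and 96.0 RPM at each hour from 5-6 h to 13-14 h. The 4-5 h library, at 43.8 RPM (37.3 to 51.4), is the exception in this plateau. From there *Wnt5* declined to 39.5 RPM at 16-17 h and 13.0 RPM at 18-19 h, with a minimum of 4.42 RPM (2.32 to 8.39) at 20-21 h. The mean of 8-11 h was 5.85 times that of 0-3 h and 11.7 times that of 20-23 h, and the values of the 3 blocks did not overlap between the middle and either end. The early step was 2.40 ± 0.37 (SE; limma, adjusted p = 1.61e-05) and the late step -3.73 ± 0.35 (adjusted p = 6.86e-09), the strongest fall among the 9 genes under limma on RPM and also with TMM factors (-2.63, adjusted p = 1.19e-06).

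*Wnt2* (FBgn0004360), a ligand known in *D. melanogaster* for roles in the tracheal system and the testis, was near the limit of detection, with 161 reads in all 23 libraries. Its level was at most 0.643 RPM in the first 3 h and 2.27 RPM (1.32 to 3.88) at 3-4 h. It stood at 6.43 RPM (4.24 to 9.73) at 4-5 h, and at 4.92 RPM and 4.6 RPM (2.11 to 10.0) in the next 2 h, the last of which lies outside the 2 libraries that stand apart. The 7.0 RPM of 7-8 h was 1 read. Between 8-9 h and 18-19 h it lay between 0.376 and 3.68 RPM, with overlapping values of 3.34 RPM (2.43 to 4.59, 38 reads) at 9-10 h and 3.68 RPM (2.49 to 5.44, 25 reads) at 13-14 h. No reads were found at 2-3, 19-20, 20-21 and 22-23 h, where 3 reads would be 0.76 to 2.19 RPM and the Wilson intervals reach 0.973 to 2.80 RPM. The late fall was called (-1.56 ± 0.44, limma, adjusted p = 0.00281), whereas the early step was not (1.04 ± 0.45, adjusted p = 0.0791). Leaving out 4-5, 8-9 or 11-12 h, 1 at a time, brought the early step under 0.05 (lowest adjusted p = 0.0269), as did a spline of 3 df (1.23, adjusted p = 0.0459) and leaving out 4-6 h (1.19, adjusted p = 0.0373). At so few reads the size of both steps depended on the pseudocount and the tool. With a pseudocount of 0.1 the early step was 2.12 (adjusted p = 0.109) and the late step -3.76 (adjusted p = 0.00134), and with edgeR and TMM the late fall lost its call (-2.50, adjusted p = 0.0729).

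Of the receptors, *fz2* (FBgn0016797), a Frizzled family receptor that binds Wingless, was read at 18.2, 33.2 and 20.0 RPM in the first 3 h, then at 109.6 RPM (101.0 to 119.0) at 3-4 h. It lay between 90.9 and 125 RPM until 7-8 h and reached 215 RPM (206 to 223) at 9-10 h and 209 RPM (193 to 227) at 11-12 h, which overlap. At 13-14 h it was still 199.6 RPM, and 1 h later 87.8 RPM (72.4 to 106). The last 3 h, at 17.7, 28.7 and 22.6 RPM, were close to the first 3. The early step of *fz2* was 2.69 ± 0.34 (limma, adjusted p = 1.43e-06) and the late step -2.92 ± 0.33 (adjusted p = 8.56e-08), or -1.76 (adjusted p = 0.000207) with TMM factors.

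*fz* (FBgn0001085), the founding Frizzled receptor, was instead among the genes with RNA at the start. It was read at 32.2 RPM (29.3 to 35.3), 36.4 RPM and 46.9 RPM (40.6 to 54.1) in the first 3 h and at 18.4 to 29.0 RPM between 3 and 7 h. The 7-8 h library held 0 reads of it. The highest value was 50.6 RPM (46.6 to 54.9) at 9-10 h, which overlaps that of 2-3 h, and both flanking hours were lower, at 19.2 and 35.3 RPM. At 18-19 h it was 19.9 RPM (17.2 to 23.0) between 6.28 RPM (3.41 to 11.6) and 3.51 RPM (1.61 to 7.65) in the hours on either side, so neighbouring libraries differed by more than counting error. The early step was not called (-0.59 ± 0.73, limma, adjusted p = 0.588) and the late step was (-1.87 ± 0.71, adjusted p = 0.0217). With TMM factors the late step was -0.83 (adjusted p = 0.319).

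The calls on *fz* are the least firm of the 9. Its test over time (limma, adjusted p = 0.0389) was lost when any of 12 single libraries was left out, with the highest value without 20-21 h (0.0954), and leaving out the 7-8 h library alone brought it to 6.46e-05 and its late step to -2.19 (adjusted p = 2.74e-05). The late step was lost without 19-20 h (0.0514) or 20-21 h (0.0533). The ratio of *fz2* to *fz* went from 0.427 to 0.912 in the first 3 h to 3.84 at 3-4 h, and lay between 3.10 and 10.2 at each later hour where *fz* had reads. These ratios compare 5' ends and not full transcripts, so only their change with time is of use.

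*arr* (FBgn0000119) encodes the LRP family coreceptor needed for the canonical signal. It stood at 26.2 RPM (23.7 to 29.1) at 0-1 h and 26.4 RPM at 1-2 h, and at 50.0, 53.0 and 58.6 RPM from 8 to 11 h. The 2 libraries that stand apart gave opposite values for it, 71.9 RPM (63.4 to 81.4) at 4-5 h and 23.5 RPM (17.4 to 31.6) at 5-6 h. It declined from 10-11 h to 8.76 RPM (5.01 to 15.3) at 22-23 h. The late step was -2.17 ± 0.28 (limma, adjusted p = 4.15e-07), or -1.04 (adjusted p = 0.00473) with TMM factors. The early step, 0.77 ± 0.29 (adjusted p = 0.0398), lost its call with TMM factors (0.68, adjusted p = 0.0895), with edgeR and TMM (0.68, adjusted p = 0.0846), with 5 df (0.72, adjusted p = 0.0593) and when any of 6 single libraries was left out (0-1, 1-2, 10-11, 12-13, 17-18 or 18-19 h), with the highest value without 0-1 h (0.173). Without 4-5 and 5-6 h together it was 0.81 (adjusted p = 0.0093).

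*dsh* (FBgn0000499), the cytoplasmic relay between receptor and destruction complex, was flat over the first part of the course. It was read at 37.3 RPM (34.2 to 40.6) at 0-1 h and 44.6 RPM (38.1 to 52.3) at 10-11 h, with 20.7 to 40.4 RPM between 3 and 7 h. The 70.0 RPM of 7-8 h rests on 10 reads (38.0 to 129 RPM) and overlaps its neighbours. The early step was 0.06 ± 0.31 (limma, adjusted p = 0.905), and its sign depended on the scaling (-0.02 with TMM factors). From 23.7 RPM at 11-12 h the level declined to 8.76 RPM (5.01 to 15.3) at 22-23 h, a late step of -1.73 ± 0.30 (adjusted p = 1.99e-05). With TMM factors this step was -0.61 (adjusted p = 0.0715).

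*Axn* (FBgn0026597), the scaffold of the destruction complex, had much of its RNA early. It was at 69.8, 73.8 and 77.0 RPM in the first 3 h and highest at 3-4 h (96.7 RPM, 89.0 to 105), with 85.8 RPM (78.6 to 93.6) at 8-9 h as the next value. From 13-14 h on no library exceeded 29.5 RPM, and the last 3 h gave 16.7, 16.2 and 19.7 RPM. Its early step was not called (-0.50 ± 0.26, limma, adjusted p = 0.141), and the late step was -1.44 ± 0.25 (adjusted p = 2.05e-05). With TMM factors the late step was -0.29 (adjusted p = 0.404), near the median of all genes.

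*sgg* (FBgn0003371), the fly glycogen synthase kinase, which also works outside the Wnt pathway, gave more 5' ends (RPM) than the other 8 genes at every hour and was the steadiest of those with reads at every hour. It went from 263 to 306 RPM in the first 3 h to 449 RPM (432 to 466) at 3-4 h, stayed between 432 and 658 RPM up to 16-17 h, and fell to 307 RPM at 17-18 h and 186 RPM (172 to 201) at 21-22 h. The highest value, 658 RPM (538 to 805) at 7-8 h, rests on 94 reads and overlaps the 616 RPM of 14-15 h. Its range of 3.54-fold put it under the limit of 5-fold that the study set for housekeeping promoters, as the one such gene of the 9. The early step was 1.10 ± 0.20 (limma, adjusted p = 0.000123) and the late step -1.71 ± 0.19 (adjusted p = 6.86e-08), or -0.53 (adjusted p = 0.016) with TMM factors.

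*pan* (FBgn0085432), the TCF family factor that carries the signal to target genes, rose early and did not decline with the others. The first hour gave 16.3 RPM (14.3 to 18.6), the following 2 h 26.9 and 26.6 RPM, and the 3-4 h library 106 RPM (97.9 to 115). Later values ranged from 47.7 RPM (36.8 to 62.0) at 14-15 h to 117 RPM (102 to 134) at 5-6 h and 116 RPM (97.1 to 138) at 12-13 h, and the last 3 h gave 64.8, 67.1 and 83.2 RPM. The mean of 20-23 h was 3.08 times that of 0-3 h in RPM. The early step was 1.47 ± 0.33 (limma, adjusted p = 0.0011), and the late step -0.09 ± 0.32 (adjusted p = 0.8). On the TMM scale the late step of *pan* was a rise of 1.09 (adjusted p = 0.0129). Without 0-1 h the test of *pan* over time lost its call (adjusted p = 0.0802).

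By the definitions of the study, applied here to genes with a maximum of at least 10 RPM, *sgg* was housekeeping (7.72% of 7503 genes) and *Wnt5* developmentally regulated, with at least 60% of its summed RPM in 8 consecutive hours (60.3%, from 5 to 13 h; 39.0% of genes). *fz2*, at 58.9% from 6 to 14 h, lay just under that limit. *Wnt2* did not reach the minimum, and the other 6, *fz2* included, were in neither class (53.2% of genes). Both classes moved with the scaling. With TMM factors *dsh*, *Axn*, *arr* and *sgg* were housekeeping and 0 of the 9 regulated. The shares of all genes were computed on RPM only, so these counts have no background. *fz2* joined *Wnt5* without 4-5 and 5-6 h, and also when any of 16 single libraries from 3-4 h to 18-19 h was left out. A library left out lowers the summed RPM, and inside the window it makes the 8 time points span more than 8 h. At 58.9% *fz2* can pass the limit by this alone. Without 0-1 h *pan* was housekeeping.

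Over the 23 time points the profiles of *Wnt5*, *sgg* and *fz2* lay closest to each other. Pearson's r of log2(RPM + 1) was 0.94 for *Wnt5* with *sgg*, 0.90 for *Wnt5* with *fz2* and 0.89 for *sgg* with *fz2*, and each was among the 100 closest of 8366 genes to the other 2. The 36 pairs of the 9 genes had a median r of 0.54, with 19 above 0.5 and 4 below 0. The lowest were *pan* with *dsh* and with *Axn*, both -0.23. The same was not computed over pairs of all genes, so these counts have no background. For *pan* the closest gene of all reached 0.84, against 0.97 for *Wnt5*. These are descriptions, since successive hours share their course of development and all libraries were made as 1 pool.

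A further 35 *D. melanogaster* identifiers of Wnt pathway genes were looked up, of which 34 were listed and 33 tested. The sources used here do not pair these identifiers with symbols, so they are counted and not named. All 33 changed over time (limma; 89.4% of all genes). In the early step 12 rose (18.5% of all genes) and 0 fell (15.0%), and in the late step 31 fell (53.0%) and 0 rose (18.3%). Their medians were 0.55 and -1.97. FBgn0024836 rose most in the early step (4.91, adjusted p = 2.36e-10), and FBgn0015380 fell most in the late one (-3.62, adjusted p = 3.53e-07). With TMM factors 16 fell in the late step (23.1% of all genes) and 0 rose (27.6%), so none of them rose late as *pan* did on that scale.

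Promoter use was examined next. The gene table carries *D. melanogaster* identifiers and the TSC table those of *D. erecta*, so each gene was linked to the TSCs whose reads over the 23 libraries summed to its own. The match was exact for *dsh*, *pan* and *arr*. Between 2 reads (*Wnt2*) and 974 reads (*sgg*, of 42207) differed for the others, and the next best candidates differed by 72 to 5118 reads. The links of all 9 genes rest on reads, since the 2 sets of identifiers were not paired. All 3 TSCs of *fz2* and the single TSCs of *Axn* and *Wnt2* also carry no gene label in the deposited tables. The 9 genes had 28 TSCs: 8 for *sgg*, 4 each for *fz* and *arr*, 3 each for *fz2* and *pan*, 2 each for *dsh* and *Wnt5*, and 1 each for *Axn* and *Wnt2*. Positions are 1-based on the scaffolds of FlyBase release 1.3, and without an annotation of that release exons, introns and UTRs are not given. The map of distances shows the layout.

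**Figure D3:**
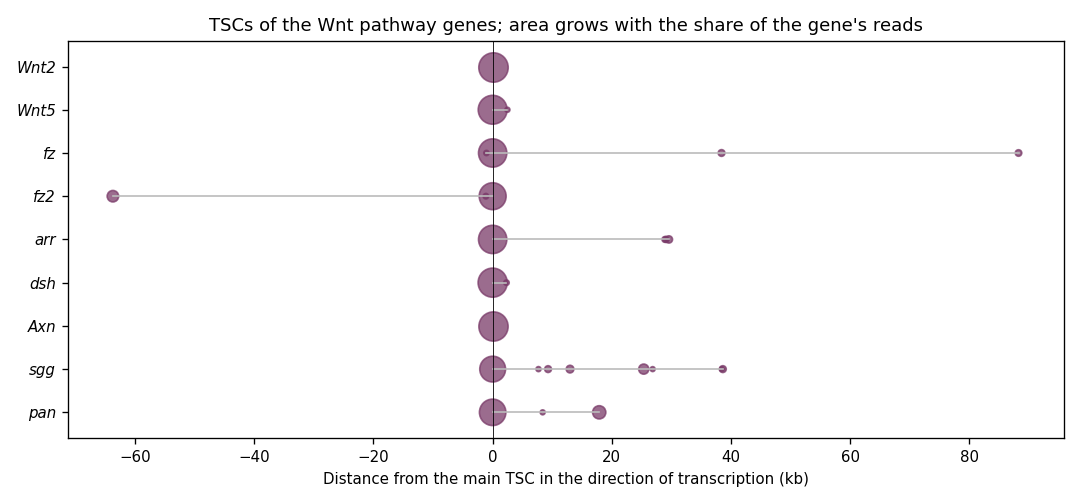
TSCs of the 9 genes by distance from the gene's main TSC (kb, positive in the direction of transcription); the area of a circle grows with the TSC's share of the gene's reads. The main TSC dominates in each gene, and sizeable circles away from it appear for *fz2* (63720 bp upstream, 13.2% of reads), *pan* (17878 bp downstream, 18.4%) and *sgg* (25347 bp downstream, 9.64%).

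In 6 genes a single promoter carried nearly everything. The main TSC held 93.5% of the reads of *fz* (scaffold 4784, 14254163 to 14254325, plus strand) and 99.1% of those of *dsh* (scaffold 4690, 3905453 to 3905559, minus). It held 99.9% of those of *Axn* (scaffold 4820, 2159106 to 2159210, minus), 93.4% of *arr* (scaffold 4845, 16445232 to 16445282, plus) and 97.5% of *Wnt5* (scaffold 4690, 8716475 to 8716872, minus). *Wnt2* had 1 TSC of 21 bp (scaffold 4929, 8981396 to 8981416, minus). The main TSC of *Wnt5* was 398 bp wide, the widest of the 28, whereas that of *arr* spanned 51 bp.

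The remaining genes, *fz2*, *pan* and *sgg*, drew a larger share of their reads from a further promoter. Of the 28 TSCs, 18 passed the filter on low counts and 15 of these changed over time (limma; 87.4% of 14966 TSCs). In the early step 9 rose (21.4% of all TSCs), and in the late step 13 fell (48.5%) and 1 rose (18.5%), the downstream TSC of *pan*. With TMM factors 11 changed (76.7%), 8 rose in the early step (17.6%), 4 fell in the late step (17.1%), and the same TSC of *pan* was the 1 that rose late (29.7%).

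*pan* drew a growing share of its reads from a downstream promoter in the second part of embryogenesis. Its main TSC (scaffold 4512, 1229972 to 1230071, minus strand) held 81.3% of the reads and went from 15.9 RPM at 0-1 h to 105 RPM at 3-4 h, with 110.2 RPM left at 12-13 h but 34.1 RPM at 22-23 h. The downstream TSC (1212081 to 1212193) gave at most 2.65 RPM at each hour up to 10-11 h, except in the 2 libraries that stand apart. It then went from 9.11 RPM at 11-12 h to 19.0 RPM at 13-14 h, and from 36.7 RPM at 17-18 h to 50.4 RPM at 22-23 h. Of the reads of both TSCs the downstream one took 1.11% to 4.81% in the first 3 h and 1.5% to 3.37% from 8 to 11 h. It took 29.7% to 48.2% from 14 to 17 h and 44.1% to 59.6% in the last 3 h, where the 59.6% of 22-23 h (50.5% to 68.2%, 68 of 114 reads) made it the larger of the pair.

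At 4-5 h the downstream TSC of *pan* was at 17.4 RPM, or 15.4% of both (12.1% to 19.3%, 59 of 384 reads), and at 5-6 h at 6.06 RPM. The hours before and after gave 1.23 RPM at 3-4 h and 0 reads at 6-7 h. In the last 3 h this TSC was at 31.5, 30.2 and 50.4 RPM. The late TSCs stood at a median of 19.1% and 11.7% of their late level in the same 2 libraries. Their low level at 6-7 h was part of how they were chosen. The summed RPM of a list of muscle markers was 92.9 at 3-4 h and 2357 in the 4-5 h library. It was 1063 in the 5-6 h library and 9.97 at 6-7 h. The part of the late TSC signal in the *pan* values was not tested beyond leaving the libraries out.

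A quasi-binomial model asked whether the balance between a gene's main promoters moved with time. It took in genes of 500 reads or more in which the TSC next in size had 10% or more. Of 833 genes tested, 57.5% were called, and *fz2* and *pan*, the only eligible genes of the 9, both were. For *pan* the fitted share moved by 47.5 percentage points (Benjamini-Hochberg adjusted p = 2.25e-06). Without 4-5 and 5-6 h it moved by 47.1 points (adjusted p = 8.53e-08), and the dispersion went from 5.51 to 2.95. The separate limma fits gave -0.95 ± 0.36 (adjusted p = 0.0245) for the main TSC in the late step and 3.06 ± 0.64 (adjusted p = 0.000209) for the downstream one. With TMM factors the main TSC was at 0.55 (adjusted p = 0.257) and the downstream TSC at 4.40 (adjusted p = 5.34e-07), so the rise of the downstream TSC held on both scales and the fall of the main one did not. The fall of the main TSC was also lost when any of 5 single libraries was left out (11-12, 12-13, 20-21, 21-22 or 22-23 h; highest adjusted p = 0.0864).

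*fz2* shifted towards an upstream promoter. The main TSC (scaffold 4784, 18975625 to 18975667, minus strand) held 84.5% of its reads. Alone it differed from the gene by 1582 reads, close to the 1586 of the next candidate, but of 1979 candidates as deep it was the one that exceeded the gene's reads at no hour. The upstream TSC, 63720 bp away (19039312 to 19039387), was the one of 6323 TSCs as deep whose reads fitted within the remainder at each hour. A small TSC was added in the same way, although 2 of 13899 fitted, and 136 of the gene's 10177 reads stayed unassigned. The upstream TSC gave at most 4.25 RPM up to 9-10 h, then 10.3 RPM at 10-11 h and 32.3 RPM at 11-12 h, with its maximum of 54.3 RPM at 13-14 h and 5.51 to 11.0 RPM in the last 3 h. Its share of both TSCs was 0.446% to 2.01% from 3 to 7 h, 6.58% (4.77% to 9.01%) at 10-11 h, 15.4% (12.6% to 18.6%) at 11-12 h and 27.4% (25.0% to 29.8%) at 13-14 h. From 14-15 h on it lay between 27.8% and 38.4% at each hour, while the summed level of the gene went down.

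The fitted share of *fz2* moved by 34.8 points (quasi-binomial, adjusted p = 9.01e-10, dispersion 1.02), and by 34.5 points without 4-5 and 5-6 h (adjusted p = 2.4e-08). In the limma fits both TSCs rose in the early step, by 2.63 ± 0.35 (main, adjusted p = 2.23e-06) and 2.74 ± 0.48 (upstream, adjusted p = 7.69e-05). In the late step the main TSC fell by 3.28 ± 0.34 (adjusted p = 2.42e-08), and the upstream one was at -0.59 ± 0.46 (adjusted p = 0.258), or 0.76 with TMM factors (adjusted p = 0.167). The plot of promoter shares sets these genes beside *sgg*.

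**Figure D4:**
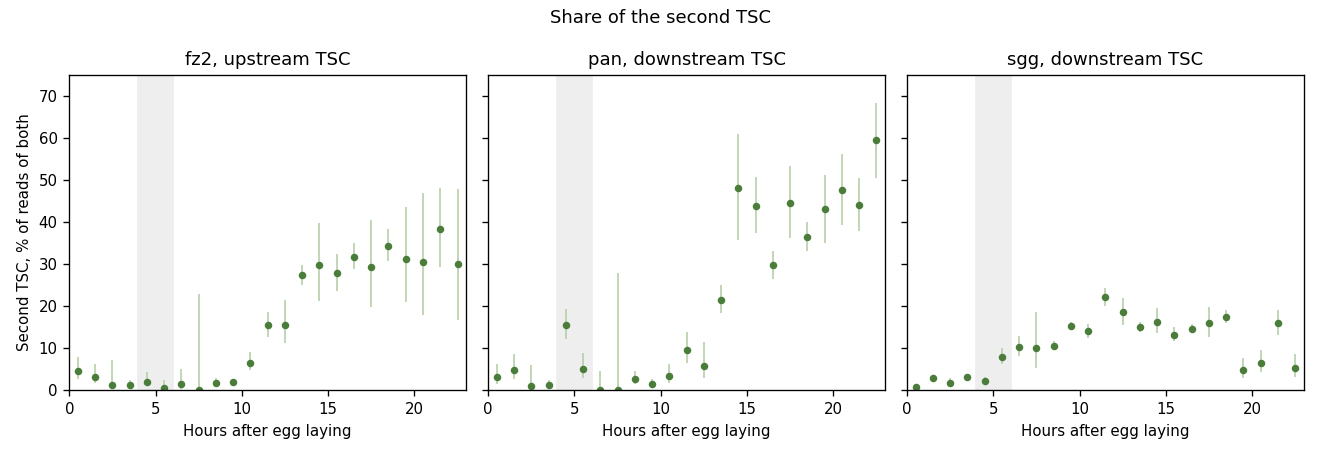
Share of the second TSC in the reads of both TSCs (%, with 95% Wilson intervals) against hours after egg laying, for the upstream TSC of *fz2*, the downstream TSC of *pan* and the downstream TSC of *sgg*; 1 sample per hour, with the libraries of 4-6 h in grey. The share of *fz2* climbs from 6.58% at 10-11 h to 27.4% at 13-14 h and stays near that, *pan* climbs to 59.6%, and *sgg* is highest at 11-12 h (22.1%).

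*sgg* kept its main TSC throughout (scaffold 4644, 2473837 to 2473953, plus strand; 77.1% of reads), from 222 RPM at 0-1 h to 499 RPM at 7-8 h, with 175 RPM left at 22-23 h. The TSC 25347 bp downstream (2499184 to 2499212) had the widest range of the TSCs with reads at every hour, from 1.66 RPM at 0-1 h to 119.5 RPM at 11-12 h, with 9.64 RPM left at 22-23 h. Its early step was 4.25 ± 0.39 (limma, adjusted p = 9.07e-09), against 0.93 ± 0.22 for the main TSC (adjusted p = 0.00183). In the late step it fell by 2.70 ± 0.37 (adjusted p = 1.29e-06), and by 1.23 (adjusted p = 0.00717) with TMM factors. Of the reads of both TSCs it took 0.74% (0.494% to 1.11%) at 0-1 h, 10.6% to 15.3% from 8 to 11 h and 22.1% (20.0% to 24.3%) at 11-12 h. At 19-20, 20-21 and 22-23 h it was at 4.82%, 6.54% and 5.22%, but at 15.9% (13.1% to 19.2%) at 21-22 h, so the late hours did not form a smooth course. Its 9.64% of the gene's reads kept *sgg* out of the test of promoter balance, and the difference between its TSCs was not tested.

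The smaller promoters of *sgg* added further courses. The TSC 12980 bp downstream (2486817 to 2486849) went from 5.26 RPM at 0-1 h to 66.1 RPM at 14-15 h, with 8.90 RPM at 22-23 h, rising by 1.66 ± 0.48 in the early step (limma, adjusted p = 0.00844; 0.0786 without 0-1 h). The TSC at 9299 bp (2483136 to 2483166) was highest at 0-1 h (22.5 RPM) and moved between 1.14 and 21.4 RPM from hour to hour between 3 and 17 h. It did not pass the test over time (adjusted p = 0.122). The 358 bp wide TSC at 38621 bp (2512458 to 2512815) was at 28.6 RPM at 3-4 h and 28.7 RPM at 12-13 h and fell in the late step (-1.99 ± 0.41, adjusted p = 0.000186), but with TMM factors this fall was -0.67 (adjusted p = 0.186).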

How the data were processed

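RAMPAGE was run on staged whole embryos of *D. erecta*, 1 sample at each of 23 time points. The authors mapped the reads with STAR (version not given in the sources used here) to FlyBase release 1.3, called TSCs on the pooled reads of the series, removed peaks on rDNA and assigned TSCs to genes, supplemented by orthology with *D. melanogaster*. The deposited gene and TSC tables hold RPM, reads scaled to a common library total. Values above 0 came in whole multiples of a single read (tolerance 0.02), so reads could be recovered for 100% of 185320 gene values and 100% of 379172 TSC values. The deposited list of TSC positions has starts, ends and a score of unstated meaning, which was not used, and a deposited table of aligned z-scores was not used.

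limma 3.58.1 (trend option) was fitted to log2(RPM + 1), a scale that understates the change of low genes, with natural cubic splines of time in start hours (4 df). Genes were kept by filterByExpr of edgeR 4.0.16 with a minimum count of 10, and p-values were adjusted over all genes or TSCs tested. Because there are no replicates, they measure scatter around the curve. Shares of promoters were modelled with a quasi-binomial spline (3 df, reads capped at 100 per time point, at least 10 reads at 8 or more time points). The models were tested on simulated data. Genes were linked by their reads, with all TSCs as candidates. TSCs without a gene label on the same strand within 100 kb were then added where their reads fitted the remainder. The reads carry no molecular identifiers and are not independent molecules, so intervals cover counting error only. Alternatives were another pseudocount, no filter, TMM factors, 3 or 5 df, edgeR's quasi-likelihood test on the recovered reads, an adjusted p under 0.001, a running mean, each time point left out and 4-6 h left out; edgeR scaled by the library total was chosen after seeing the data. All 9 genes are named; the other pathway identifiers by the largest step in each direction. Markers were lists of stage and tissue genes, of which 9 of 10 identifiers were listed. Summed RPM of the maternal list went from 1179 at 0-1 h to 35.8 at 22-23 h, of the blastoderm and gastrula list from 38.5 at 0-1 h to 1096 at 3-4 h and 5.11 at 22-23 h, and of the neuron list from 2.36 at 0-1 h to 305 at 22-23 h. The genes, lists and tests were chosen with earlier results of these data known. Python 3.11.15 and R 4.3.3 were used.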

Additional observations from a re-analysis of the deposited data

How the results depend on the processing

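No paired analysis was possible because each time point is a single sample, so the groups have fewer than 2 replicate numbers in common. Of the values of single genes in the 2 steps under the alternatives of fit, scaling, filter and time points, 522 kept their direction and side of the threshold, 20 lost the call, 5 gained it and 11 changed sign. The sign changed for *dsh* in the early step (-0.02 with TMM factors, -0.01 with edgeR and TMM, -0.01 without 4-6 h; -0.06 to 0.20 leaving out 1 time point) and for *pan* in the late step (1.09 with TMM factors, 1.00 with edgeR and TMM, 0.08 with 5 df; -0.18 to 0.08 leaving out 1 time point). With TMM factors the late step had 5 of the 9 genes falling and 1 rising, and with edgeR and TMM 4 falling and 1 rising, against 8 and 0. Of the other pathway genes 16 and 17 fell under the same settings, against 31, and in the early step 1 fell with TMM factors, with 3 df, with 5 df and in both edgeR fits, and 2 without 4-6 h, against 0. Housekeeping genes among the 9 numbered 4 with TMM factors and 3 with a running mean, against 1, and regulated genes 0 in both and 2 without 4-6 h, against 1. The shares of these classes over all genes were not computed under these settings. An adjusted p under 0.001 left 8 of the 9 genes changing, 3 rising early and 6 falling late. Of all 8367 genes tested it left 5734, 759 and 2779. The causes were not tested.

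Leaving out 1 time point at a time, the 9 genes gave 8 to 9 changing, 4 to 6 rising and 0 falling in the early step, 0 rising and 7 to 8 falling in the late step, 14 to 16 changing TSCs, 2 genes with a changing promoter balance, and 1 to 2 housekeeping, 1 to 2 regulated and 5 to 6 in neither class. The other pathway genes gave 32 to 33 changing, 9 to 13 rising and 0 to 1 falling early, and 0 rising and 28 to 31 falling late. Over all genes, 8326 to 8369 tested, these fits gave 7220 to 7732 changing, 1071 to 1742 rising early and 4129 to 4761 falling late. Of all TSCs, 14793 to 14899 tested, 12639 to 13536 changed. The promoter balance changed in 448 to 479 of 830 to 833 genes tested. Shares of the classes over all genes were not computed with a time point left out. The late step of *fz* also lost its call with a pseudocount of 0.1 (-1.81, limma, adjusted p = 0.156) and with 5 df (-1.50, adjusted p = 0.0807). Depth limits *Wnt2* and the 7-8 h library.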
